A study of Mus musculus with 8 samples.

Results

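The 43 genes described here carry long-chain fatty acids through the heart, from uptake at the cell surface to oxidation in the mitochondrion or storage as triglyceride. They were chosen by gene symbol, with earlier results of these data known, and all 43 were found among the 17911 genes of the deposited table. By step they comprise 7 genes of uptake, 5 of activation to acyl-CoA, 7 of the carnitine shuttle and its control, 16 of the oxidation spiral and its electron transfer, 5 of storage and lipolysis, and 3 thioesterase and uncoupling genes.

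The hearts came from 4 female and 4 male wild-type C57Bl6/J mice, with no treatment and no transgene named in either sex. The labels call the animals adult and give their age as 4 weeks in one place and as 4 to 6 weeks in another. RNA was taken from single whole hearts and sequenced, and each heart carries a sex and a replicate number (1 to 4 in females and 1, 3, 4 and 5 in males). The comparison asks which of these transcripts differ in level between female and male hearts. Nothing states whether hearts came from separate litters, so the p-values measure the spread between these 8 hearts.

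Fatty acids are the main fuel of the adult heart. Lipoprotein lipase frees them from circulating triglyceride, transporters and binding proteins bring them into the cardiomyocyte, and acyl-CoA synthetases trap them as acyl-CoA. Carnitine palmitoyltransferases and a carrier in the inner membrane then move the acyl group into the matrix, where each turn of the oxidation spiral shortens it and hands electrons to the respiratory chain. Acyl-CoA that is not burned at once can be built into triglyceride droplets and released again by lipases. Many of these genes are known targets of the nuclear receptor PPAR-alpha in mouse.

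In units of 1e6 (M), reads assigned to genes numbered 51.7 to 66.3 M in female hearts and 55.0 to 75.7 M in male hearts, where the labels state a depth above 80 M. Values are normalized read counts: the authors' read counts divided by 1 size factor per heart, between 0.821 and 1.17. The sex labels matched Xist, at 14056 to 14867 in female and 207 to 254 in male hearts, and Ddx3y, at 4.85 to 82.8 in female and 5715 to 6111 in male hearts. The tissue label matched 10 cardiomyocyte markers, all measured, whose summed count ran from 4.85 to 5.27 M in female hearts and from 4.65 to 5.09 M in male hearts, and 1 of the 10, the calcium channel Ryr2, rose in females (log2 fold change 0.20, adjusted p = 0.0341 by limma). Of the marker lists for other cells, endothelial sums overlapped between the sexes, at 79368 to 87200 in females and 82085 to 88845 in males. The sum of 12 macrophage markers did not overlap, at 22466 to 26190 in female hearts and 27203 to 33827 in male hearts, and 3 of the 12 (Csf1r, C1qa and C1qb) fell in females. All 12 had a log2 fold change below 0, against 49.1% of all genes. By limma 0.475% of all genes rose and 0.687% fell. Fibroblast sums overlapped, at 188555 to 210133 in females and 187827 to 197256 in males, and 1 of 8 markers, the matrix protein gene Lum, rose in females (log2 fold change 0.30, adjusted p = 0.00285 by limma). Blood cell sums also overlapped, at 15014 to 26058 in females and 15551 to 22871 in males, and none of the 9 passed. Of these 5 marker calls Lum alone passed without any 1 heart, and the adjusted p of the others reached 0.142. The 7 measured skeletal muscle markers, dominated by Ckm and Acta1, summed to 127161 to 133175 in females and 147050 to 164365 in males, and none of the 7 passed the test. Of the 7 only Acta1 did not overlap, at 7954 to 13634 in females and 14867 to 28963 in males. Ckm, Actn3, Tnnt3, Tnni2, Mylpf and Atp2a1 each overlapped between the sexes. None of the measured markers of these lists was at 0 in any heart, and Myh1, Myh2 and Myh4 of the skeletal muscle list are not among the genes of the table. The macrophage and skeletal muscle sums separate the sexes as the genes called below do, and their part in those results was not tested. In RNA from whole hearts, fewer cells of a type and less RNA per cell cannot be told apart.

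Levels are set side by side here per length. Per kilobase of the principal transcript, Fabp3 was the most abundant member at 170210 normalized reads in female hearts and 193104 in male hearts. Lpl came next at 81595 and 74379 normalized reads per kilobase in female and male hearts, and then Hadhb at 43980 and 46930. The 4 lowest members were acyl-CoA synthetases, of which Acsl3 stood at 139 in females and 136 in males, and Acsl4 at 222 and 206. The oxidation genes reached from Eci2 at 5145 normalized reads per kilobase in females and 5363 in males up to Hadhb, so that none of the 16 was near the low end.

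**Figure D1:**
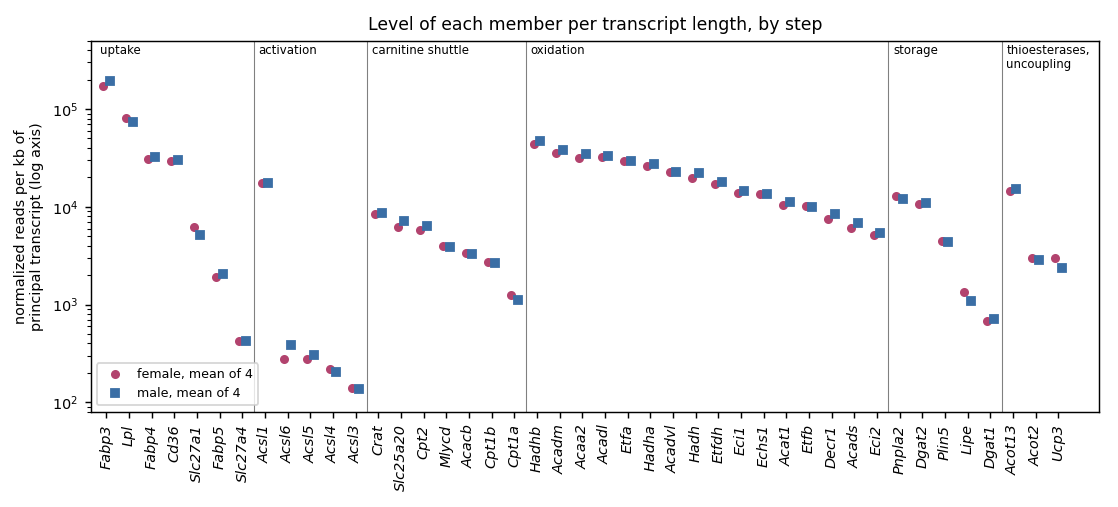
Mean level of each of the 43 genes in female hearts (circles) and male hearts (squares), in normalized reads per kilobase of the principal transcript on a log axis, grouped by step and sorted within each step. Each point is the mean of 4 hearts; Fabp3 stands highest and Acsl3 lowest, and the sexes lie close together at every gene.

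Of the 43 genes, 1 rose and 5 fell in female relative to male hearts at an adjusted p under 0.05 (limma, Benjamini-Hochberg over all 17911 genes), and 37 did not pass. The gene that rose was Slc27a1, a fatty acid transporter. The 5 that fell were Fabp3, Acsl6, Slc25a20, Acads and Decr1, so that every step from uptake to oxidation holds at least 1 lower gene. Over all genes tested 1.16% were called, 0.475% higher and 0.687% lower, and among the 9223 genes with a mean of at least that of the lowest member the shares were 0.802% and 1.04%. In size the differences were small. The log2 fold changes of the 43 genes ran from -0.48 to 0.39, and 4 of the 5 that fell lay between -0.22 and -0.18.

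Single hearts were also compared without a test. In 8 of the 43 genes all 4 female hearts lay below all 4 male hearts, where 4.82% of all genes did so. These were the 5 that fell together with Cpt2, Hadh and Acaa2. In 2 genes, Slc27a1 and Acsl4, all female hearts lay above all male hearts, against 4.52% of all genes. The log2 fold change was below 0 in 28 of the 43 genes, against 49.1% of all genes, and in 23 of 43 under scaling by total reads, against 43.8% of all genes. The median over the 43 genes was -0.04, beside 0.00 over all genes. At an unadjusted p under 0.05 there were 12 lower and 3 higher members, where 8.16% and 7.84% of all genes stood.

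**Figure D2:**
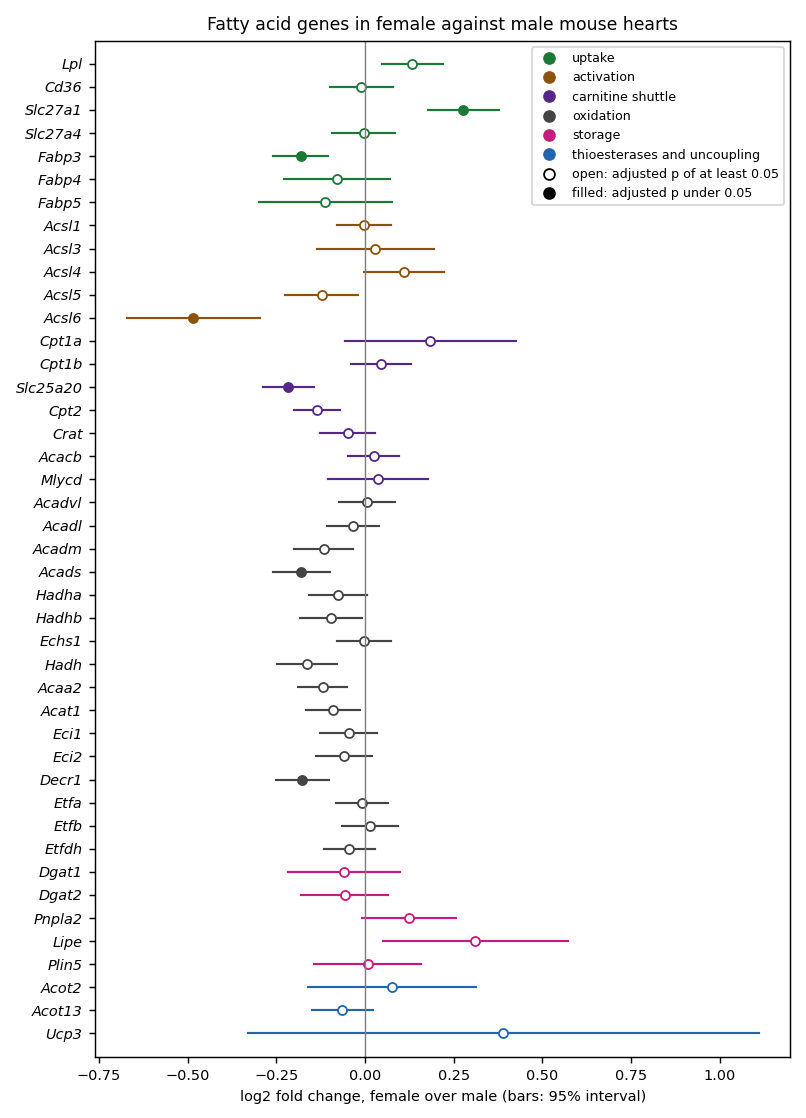
Log2 fold change, female over male, of the 43 genes with the 95% interval of the limma fit, coloured by step; filled points passed an adjusted p of 0.05. Slc27a1 alone is filled on the right of 0 and Fabp3, Acsl6, Slc25a20, Acads and Decr1 are filled on the left, while Ucp3 has the widest interval.

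The sequences before 3 of the genes that fell are shown because each of these genes has a single start in the RefSeq promoter table (GRCm38.p6), which covers 32 of the 43 genes in 39 windows. Bases run 5′ to 3′ on the gene's own strand and stop before the first base of the gene in the GENCODE annotation, so up to 250 bases before the RefSeq start are printed. Capitals mark GGGCGG, the letters of a GC box, on either strand. The other motifs searched, the nuclear receptor half-site AGGTCA and the CCAAT box, had no match in these stretches. 
Fabp3, chr4:130308488-130308594, plus strand: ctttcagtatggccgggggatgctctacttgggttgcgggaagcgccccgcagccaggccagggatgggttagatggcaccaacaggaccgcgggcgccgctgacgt
Slc25a20, chr9:108661886-108662087, plus strand: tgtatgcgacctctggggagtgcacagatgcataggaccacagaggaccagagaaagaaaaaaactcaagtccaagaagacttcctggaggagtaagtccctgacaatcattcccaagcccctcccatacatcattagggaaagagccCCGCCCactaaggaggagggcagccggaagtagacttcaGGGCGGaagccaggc
Acads, chr5:115119347-115119596, minus strand: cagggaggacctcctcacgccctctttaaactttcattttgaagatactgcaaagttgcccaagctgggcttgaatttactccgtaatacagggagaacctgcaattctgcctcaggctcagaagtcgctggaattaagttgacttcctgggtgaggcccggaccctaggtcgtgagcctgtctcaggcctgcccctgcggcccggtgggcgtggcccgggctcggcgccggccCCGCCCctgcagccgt

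Fabp3 had no capitals, Slc25a20 had 2 stretches and Acads had 1 at the end nearest the gene. Over the 250 bases before each start, GGGCGG was present in 25 of the 39 windows of these genes (64.1%), against 32.7% of the 32851 windows of all genes. CCAAT was present in 18 of 39 (46.2%), against 33.9% of all windows, and AGGTCA in 8 of 39 (20.5%), against 14.0%. Of the 9 windows of genes called in either direction, 7 held GGGCGG, 4 held CCAAT and 1 held AGGTCA. The windows before several starts of 1 gene overlap in part, and a match of letters is a description of the sequence. Fabp5, Acot13, Lpl, Cpt1b, Decr1, Dgat1, Acat1, Dgat2, Fabp4, Acaa2 and Crat have no entry in the table.

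Uptake held the member that rose and one that fell. Slc27a1 encodes FATP1, a fatty acid transport protein with acyl-CoA synthetase activity, and lies on chromosome 8 at 71568882 to 71587302, plus strand (mm10). Its normalized read counts were 17878, 16763, 17038 and 18651 in female replicates 1 to 4, against 15338, 14515, 13394 and 14794 in male replicates 1, 3, 4 and 5. The lowest female heart stood above the highest male heart. The means were 17582 ± 856 in female hearts and 14510.3 ± 819 in male hearts (SD, n = 4 each). Slc27a1 rose by 0.28 on the log2 scale (SE 0.05, adjusted p = 0.0148 by limma), a ratio of 1.21. Slc27a1 passed without any 1 of the 8 hearts, with adjusted p between 0.0113 and 0.0442.

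Fabp3 encodes the heart-type fatty acid binding protein, which carries fatty acids through the cytosol, and lies on chromosome 4 at 130308595 to 130315463, plus strand. It had 137863, 137739, 143055 and 141675 normalized reads in female replicates 1 to 4, against 153987, 160463, 167526 and 153724 in male replicates 1, 3, 4 and 5. No female heart reached the lowest male heart, and the female hearts lay closer to each other than the male hearts did. Fabp3 had a mean of 140083 ± 2695 in female hearts and 158925 ± 6526 in male hearts (± SD over 4 hearts). On the log2 scale it fell by 0.18 (SE 0.04, limma adjusted p = 0.0328), a ratio of 0.882. The call ended without female replicate 1 (adjusted p = 0.0817), 2 (0.123) or 4 (0.0608) and without male replicate 3 (0.0948) or 4 (0.0883). Whether counting used the strand is not stated, and Fabp3 shares 9.84% of its exon bases with Zcchc17 and 9.72% with Gm10570 on the opposite strand, so reads there cannot be assigned to 1 gene.

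Among the other uptake genes, Fabp5, the epidermal-type binding protein, varied most within a sex. It had 1978, 1881, 1666 and 1972 normalized reads in female hearts, against 1938, 2259.7, 2167 and 1755 in male hearts, and the sexes overlapped (log2 fold change -0.11, limma adjusted p = 0.57). Female replicate 3 and male replicate 5 were lowest, and those hearts were also lowest of their sex for Fabp4, the adipocyte-type binding protein that heart endothelium also makes. Fabp4 ran from 24124 to 29137 in females and from 26819 to 31820 in males (log2 fold change -0.08, adjusted p = 0.629), and it lies 187480 bases from Fabp5 on chromosome 3. Fabp3 made up 82.9% to 85.9% of the summed reads per kilobase of the 3 binding proteins in female hearts. In male hearts the share was 83.8% to 85.5%. All such shares within a gene family use reads per kilobase of the principal transcript.

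Lpl, the lipase that frees fatty acids from circulating triglyceride, ran from 317807 to 352389 in female hearts and from 296065 to 322510 in male hearts. Only male replicate 4 overlapped the female range, and the difference did not pass (log2 fold change 0.13, limma adjusted p = 0.133). Cd36, the fatty acid translocase, averaged 100939 ± 3849.5 in female hearts and 101675 ± 4973 in male hearts (SD, n = 4 each), with a ratio of 0.993 and a 95% interval of 0.934 to 1.06. Slc27a4, the transporter FATP4, averaged 1722 ± 53.2 in female hearts and 1728 ± 65.8 in male hearts, with a ratio interval of 0.938 to 1.06. For Cd36 and Slc27a4 the sign of the small log2 fold changes, -0.01 and -0.00, turned under scaling by total reads. Of the summed reads per kilobase of both transporters, Slc27a1 held 93.4% to 94.0% in female hearts and 91.8% to 93.1% in male hearts, with no overlap. That share moves with the level of Slc27a1 itself and is not a further result.

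**Figure D3:**
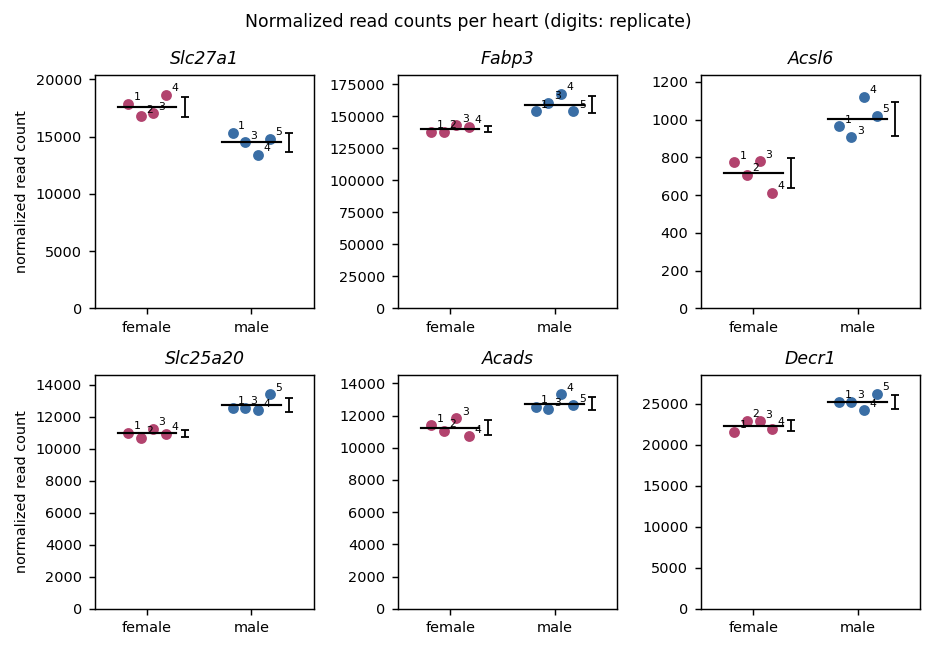
Normalized read counts in each heart of the 6 genes that passed the test, female hearts left and male hearts right. Digits are replicate numbers, horizontal lines the mean of 4 hearts and brackets ± 1 SD; the axes start at 0, and in each panel the hearts of the sexes do not overlap.

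Acsl1 was far above the other activation genes and its sexes overlapped, while the low-level gene Acsl6 fell in females. Per kilobase Acsl1 stood at 17643 normalized reads in female and 17681 in male hearts, above Acsl6 at 277 in female and 387 in male hearts and Acsl5 at 279 in female and 304 in male hearts. Acsl1, the main long-chain acyl-CoA synthetase of heart, had 69474, 70270.2, 67827 and 67455 normalized reads in female replicates 1 to 4, against 69907, 71175, 64893 and 69643 in male replicates 1, 3, 4 and 5. The sexes overlapped, with a ratio of 0.998 and a 95% interval of 0.947 to 1.05. The sign of its log2 fold change, -0.00, turned under scaling by total reads.

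Acsl6, a synthetase known from brain for its preference for polyunsaturated fatty acids, lies on chromosome 11 at 54303798 to 54364756, plus strand. It had 774, 708, 779 and 611 normalized reads in female hearts, against 964, 906, 1121 and 1021 in male hearts, with every female heart below every male heart and female replicate 4 lowest. The means were 718 ± 78.2 and 1003 ± 91.5 in females and males (SD, n = 4 each), and Acsl6 fell by 0.48 on the log2 scale (SE 0.09, limma adjusted p = 0.0251), a ratio of 0.715. This was the largest change among the 6 genes called. It did not pass without female replicate 2 (adjusted p = 0.0898), male replicate 1 (0.0534) or male replicate 4 (0.0625), nor with total reads as a covariate (0.0685). Acsl6 made up 1.30% to 1.64% of the summed synthetase reads per kilobase in female hearts and 1.81% to 2.44% in male hearts.

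The remaining synthetases did not pass. Acsl4, an X-linked synthetase that favours arachidonic acid, ran from 1158 to 1197 in females and from 992 to 1154 in males, without overlap (log2 fold change 0.11, limma adjusted p = 0.325). Acsl5, which sits on mitochondria and endoplasmic reticulum, averaged 1185 ± 48.7 in female hearts and 1289.9 ± 60.8 in male hearts (log2 fold change -0.12, adjusted p = 0.24). Acsl3, a lipid droplet synthetase, averaged 548 ± 28.6 in female hearts and 539 ± 54.4 in male hearts (SD, n = 4 each), and male replicate 4 was its lowest heart. Acsl1 held 94.97% to 95.2% of the summed synthetase reads per kilobase in female hearts and 94.1% to 94.7% in male hearts.

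Of the 7 genes of the carnitine shuttle and its control, 1 fell in females, the inner-membrane carrier, and 6 did not pass, where 0.687% of all genes fell. Slc25a20, the carrier that exchanges acylcarnitine for carnitine across the inner membrane, lies on chromosome 9 at 108662088 to 108684641, plus strand. Its normalized read counts were 10999, 10659, 11238 and 10926 in female replicates 1 to 4, against 12564, 12564, 12389.7 and 13389.7 in male replicates 1, 3, 4 and 5. Every female heart was below every male heart, and the gap between the sexes was wider than the range within females. Slc25a20 had a mean of 10955 ± 239 in female hearts and 12727 ± 449 in male hearts (± SD over 4 hearts). On the log2 scale it fell by 0.22 (SE 0.03, limma adjusted p = 0.00956), a ratio of 0.861. The call held without any 1 of the 8 hearts, with adjusted p between 0.00923 and 0.0419.

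Cpt2, the inner-membrane transferase that returns the acyl group to CoA, is given in full although it was chosen after its values were seen. It had 13489, 13898, 14109.6 and 13539.7 normalized reads in female hearts, against 14913, 15008, 15566 and 14957 in male hearts, with no overlap. The fold change, -0.14 on the log2 scale with an SE of 0.03, missed the threshold at a limma adjusted p of 0.0515, and it passed without male replicate 5 (0.0417). By the larger of its SDs within a sex Cpt2 varied least of all 43 genes, with an SD of log2 values of 0.03 in females and 0.03 in males.

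Cpt1a and Cpt1b encode the outer-membrane transferases that make acylcarnitine, the liver and the muscle form. Cpt1a was the most variable shuttle gene, with 5805, 5502, 4965 and 5542 normalized reads in female hearts, against 5341, 5116, 3857 and 5002 in male hearts. Male replicate 4 lay well below the other hearts, and the log2 fold change of 0.18 did not pass (limma adjusted p = 0.444). Cpt1b ran from 7760 to 8130 in females and from 7089 to 7928 in males (ratio 1.03, 95% interval 0.973 to 1.09). Of the summed reads per kilobase of both forms it held 68.5% ± 1.04 in female hearts and 70.5% ± 1.95 in male hearts (SD, n = 4 each). A readthrough gene, Gm44502, overlaps 81.4% of the exon bases of Cpt1b.

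Crat, the matrix carnitine acetyltransferase that buffers acetyl-CoA, was the most abundant shuttle gene per length. It had 34309.5, 35257, 37117 and 34563 normalized reads in female hearts, against 36598, 35706, 35539 and 38220.2 in male hearts, and the sexes overlapped (log2 fold change -0.05, limma adjusted p = 0.556). Acacb makes the malonyl-CoA that blocks the outer-membrane transferases and Mlycd removes it. Acacb averaged 29428 ± 397 in female hearts and 28938 ± 1110.0 in male hearts (ratio interval 0.968 to 1.07). Mlycd averaged 8390.0 ± 587 in female hearts and 8179.6 ± 642 in male hearts (ratio interval 0.931 to 1.13), and neither passed the test.

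Of the 16 oxidation genes 2 fell in females, Acads and Decr1, and 14 did not pass, where 0.687% of all genes fell. At an unadjusted p under 0.05 by limma 7 were lower and 0 higher, where 8.16% and 7.84% of all genes stood. DESeq2 called 4 lower and 0 higher after adjustment, where it called 2.15% and 1.7% of all genes, and edgeR and limma-voom each called Acads and Decr1. The log2 fold change was below 0 in 14 of the 16, against 49.1% of all genes, and in 12 of 16 under scaling by total reads, against 43.8%. The median over the 16 was -0.07, and the range ran from -0.18 to 0.01. In 4 of them, Acads, Decr1, Hadh and Acaa2, every female heart lay below every male heart, as in 4.82% of all genes.

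The acyl-CoA dehydrogenases take the first step of each turn and divide the work by chain length. Acads, the short-chain enzyme, lies on chromosome 5 at 115110299 to 115119346, minus strand, and had 11389.9, 11062, 11826 and 10702 normalized reads in female hearts, against 12559.6, 12388, 13323 and 12637 in male hearts. The highest female heart, replicate 3, stayed below the lowest male heart. Acads had a mean of 11245 ± 479 in female hearts and 12727 ± 411 in male hearts (± SD over 4 hearts). On the log2 scale it fell by 0.18 (SE 0.04, limma adjusted p = 0.0401), a ratio of 0.883. It passed only without female replicate 3 (adjusted p = 0.0336) or male replicate 5 (0.0338) among the 8 fits with 1 heart left out, and the highest of the other 6 was 0.132, without female replicate 2.

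Acadm, the medium-chain enzyme and the most abundant of the dehydrogenases per length, ran from 68521 to 76766 in females and from 75320 to 80484 in males (log2 fold change -0.12, limma adjusted p = 0.164). Acadl, the long-chain enzyme, averaged 62586 ± 2308 in female hearts and 64051 ± 1074 in male hearts (ratio interval 0.929 to 1.03). Acadvl, the very-long-chain enzyme, averaged 49401 ± 2125 in female hearts and 49144 ± 1271 in male hearts (ratio interval 0.951 to 1.06), though 42.9% of its exon bases are shared with Dvl2 on the opposite strand. As shares of the 4 dehydrogenases, Acads and Acadm were lower in female hearts and Acadvl was higher, without overlap in each case. Shares of 1 sum depend on each other, and the counts of Acadvl itself overlapped between the sexes. How often such shares separate over all genes was not computed. Acads made up 6.08% to 6.37% in female hearts and 6.53% to 7.13% in male hearts, and Acadm 36.2% to 36.8% in females and 37.1% to 38.1% in males. Acadvl made up 23.4% to 23.8% in female hearts and 22.0% to 22.6% in male hearts.

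Decr1, the reductase needed to oxidize polyunsaturated fatty acids, lies on chromosome 4 at 15917240 to 15945507, minus strand. It had 21559, 22938, 22855 and 21966 normalized reads in female hearts, against 25226, 25269, 24232 and 26196 in male hearts, and the sexes did not overlap. The means were 22329 ± 676 in female hearts and 25231 ± 802 in male hearts (SD, n = 4 each), and Decr1 fell by 0.18 on the log2 scale (SE 0.03, limma adjusted p = 0.0306), a ratio of 0.885. The call ended without female replicate 1 (adjusted p = 0.0769), 2 (0.0726) or 4 (0.0754) and without male replicate 1 (0.0712) or 3 (0.0844). The isomerases that handle other double bonds did not pass: Eci1 averaged 15897 ± 801 in female hearts and 16399 ± 179 in male hearts, and Eci2 8982 ± 167 in female hearts and 9364 ± 465 in male hearts (SD, n = 4 each).

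Hadha and Hadhb encode the subunits of the mitochondrial trifunctional protein, which carries out the last 3 reactions on long chains. They lie head to head on chromosome 5 with 85 bases between them. Hadhb, the most abundant oxidation gene per length and the most variable of the 16, had 86583, 92412, 95526 and 85764 normalized reads in female hearts, against 98425, 95099.6, 92519 and 98404 in male hearts. Only female replicate 3 reached into the male range, and the log2 fold change of -0.09 did not pass (limma adjusted p = 0.275). Hadha kept the same order of hearts within females and had a log2 fold change of -0.08 (adjusted p = 0.341), with means of 104319 ± 4147 in females and 109955 ± 3565 in males.

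The single enzymes for shorter chains act on the same reactions. Hadh, the hydroxyacyl-CoA dehydrogenase, ran from 33702 to 36967 in females and from 37939 to 41389 in males, without overlap, and did not pass (log2 fold change -0.16, limma adjusted p = 0.0697). Acaa2, the thiolase of the spiral, ran from 46889.6 to 50059.7 in females and from 51226 to 53752 in males, also without overlap (log2 fold change -0.12, adjusted p = 0.0935). Echs1, the short-chain hydratase, averaged 20935 ± 764 in female hearts and 20969 ± 589 in male hearts, with a ratio interval of 0.948 to 1.05. Acat1, a thiolase that also serves ketone bodies, averaged 35499 ± 1364 in female hearts and 37793 ± 977 in male hearts (log2 fold change -0.09, adjusted p = 0.231).

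Electrons from the dehydrogenases pass through the electron transfer flavoprotein, made of Etfa and Etfb, and its oxidoreductase Etfdh. Etfa averaged 40650.1 ± 1555 in female hearts and 40859.5 ± 781 in male hearts, Etfb 9023 ± 381 and 8935 ± 274, and Etfdh 41143 ± 1200.4 and 42432 ± 1179 (SD, n = 4 each). Their ratios lay between 0.97 and 1.01, and the 95% intervals of all 3 included 1. Etfb shares 53.0% of its exon bases with Gm45233, so its level is uncertain.

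None of the 5 storage genes passed by limma, 1 (Lipe) was higher at an unadjusted p under 0.05, and Lipe was the 1 that DESeq2 called. Of all genes 7.84% were higher at an unadjusted limma p under 0.05, and DESeq2 called 1.7% higher. Pnpla2, the lipase that takes the first fatty acid off triglyceride and the most abundant of the 5 per length, had 23664, 24610.3, 21346 and 24078 normalized reads in female hearts, against 22477, 22799, 19145 and 21602 in male hearts. The sexes overlapped, and male replicate 4 was lowest (log2 fold change 0.12, limma adjusted p = 0.344). Lipe, the hormone-sensitive lipase that acts on the diglyceride, had 5637, 4654, 4273 and 4756 normalized reads in female hearts, against 4239.9, 4283, 3253 and 3808 in male hearts. Female replicate 1 was highest and male replicate 4 lowest, and the hearts overlapped only through female replicate 3 and male replicate 3 (log2 fold change 0.31, 95% interval of the ratio 1.04 to 1.49, adjusted p = 0.242).

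Female replicate 1 also had the highest summed count of white and brown adipocyte markers, though not of every marker. The summed count of the 9 measured adipocyte markers outside the 43 genes was 13935 in that heart, 3371 to 5814 in the other female hearts and 4366 to 6623 in male hearts, and none of the 12 measured adipocyte markers, which include Lpl, Fabp4 and Lipe, passed. Cfd alone held 7374 of the 13935. Adipoq stood at 1283 in that heart, 226 to 505 in the other female hearts and 329 to 592 in male hearts. Ucp1 stood at 276 in that heart, below male replicates 3 (714) and 5 (348). Cidea stood at 1392 there, below all male hearts (1431 to 1902). The part of fat tissue in the Lipe values was not tested.

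Dgat2 and Dgat1 add the last acyl group of triglyceride. Dgat2 averaged 23966 ± 1141 in female hearts and 24969 ± 2094 in male hearts and Dgat1 1284 ± 157 in female and 1331 ± 30.1 in male hearts (SD, n = 4 each). Dgat2 held 94.0% ± 0.785 of their summed reads per kilobase in females and 94.0% ± 0.545 in males. Plin5, the droplet coat protein that tethers droplets to mitochondria, averaged 8781 ± 580.1 in female hearts and 8750.2 ± 774 in male hearts, with a ratio of 1.00 (95% interval 0.905 to 1.12).

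The genes that varied most from heart to heart were Ucp3, Cpt1a, Lipe and Acot2, and none of the 4 passed the test. Ucp3, a mitochondrial carrier of the uncoupling protein family, had 9012, 8138, 6177 and 6273 normalized reads in female hearts, against 6866, 8012, 3402 and 5148 in male hearts. Its highest male heart was 2.36 times its lowest, the widest range of any member, with an SD of log2 values of 0.27 in females and 0.54 in males. The log2 fold change of 0.39 had a 95% interval of -0.33 to 1.11 (limma adjusted p = 0.594), so a difference of this size was not detectable with 4 hearts a sex.

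Acot2, a mitochondrial thioesterase that returns acyl-CoA to free fatty acid, ran from 5595 to 6942 in females and from 5430 to 7066 in males (limma adjusted p = 0.783), and reads may be split with its near-identical paralog Acot1. Acot13, a thioesterase tied to mitochondria, was the most abundant of these 3 per length, with 9948, 10129, 10903 and 10539.7 normalized reads in female hearts, against 10278, 11174, 11265 and 10677 in male hearts. Its sexes overlapped (log2 fold change -0.06, adjusted p = 0.469). None of the 3 thioesterase and uncoupling genes passed by limma, at an unadjusted p under 0.05 or by DESeq2.

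**Figure D4:**
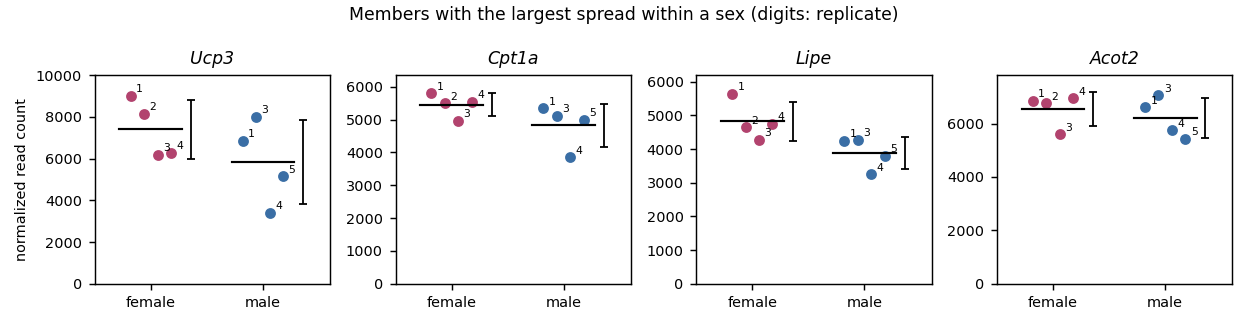
Normalized read counts per heart of the 4 genes with the largest spread within a sex, female hearts left and male hearts right; digits are replicate numbers, lines the mean and brackets ± 1 SD of 4 hearts. Ucp3 spans 3402 to 9012, and male replicate 4 is the lowest heart for Ucp3, Cpt1a and Lipe.

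Within each sex the hearts differed by step. Male replicate 4 was the lowest male heart for 22 of the 43 genes, among them 6 of the 7 shuttle genes and 4 of the 5 storage genes, but for 7 of the 16 oxidation genes. Measured as the step median of log2 deviations from each gene's mean over the 8 hearts, its storage genes stood at -0.19, against -0.01 to 0.03 in the other male hearts. Female replicate 3 was the highest female heart for 13 of the 16 oxidation genes and female replicate 4 the lowest for 12 of 16. Their oxidation medians were 0.03 and -0.08, and those of female replicates 1 and 2 were -0.06 and -0.03. Male replicate 5 was the highest male heart for 9 of the 16, at 0.06 against 0.02 to 0.04 in the other male hearts.

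Those oxidation values moved with the cardiomyocyte markers in part. The marker sum was 5.27 M in female replicate 3 and 4.85 M in female replicate 4, the highest and the lowest female hearts. In males it was 5.09 M in replicate 5, the highest, and 4.65 M in replicate 1, the lowest, whose oxidation median was 0.04. Between the sexes the marker sums overlapped and the female range reached higher, while the oxidation medians of female replicates 1, 2 and 4 lay below those of all 4 male hearts and that of female replicate 3 lay among them. The part of cardiomyocyte RNA content in these results was not tested.

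**Figure D5:**
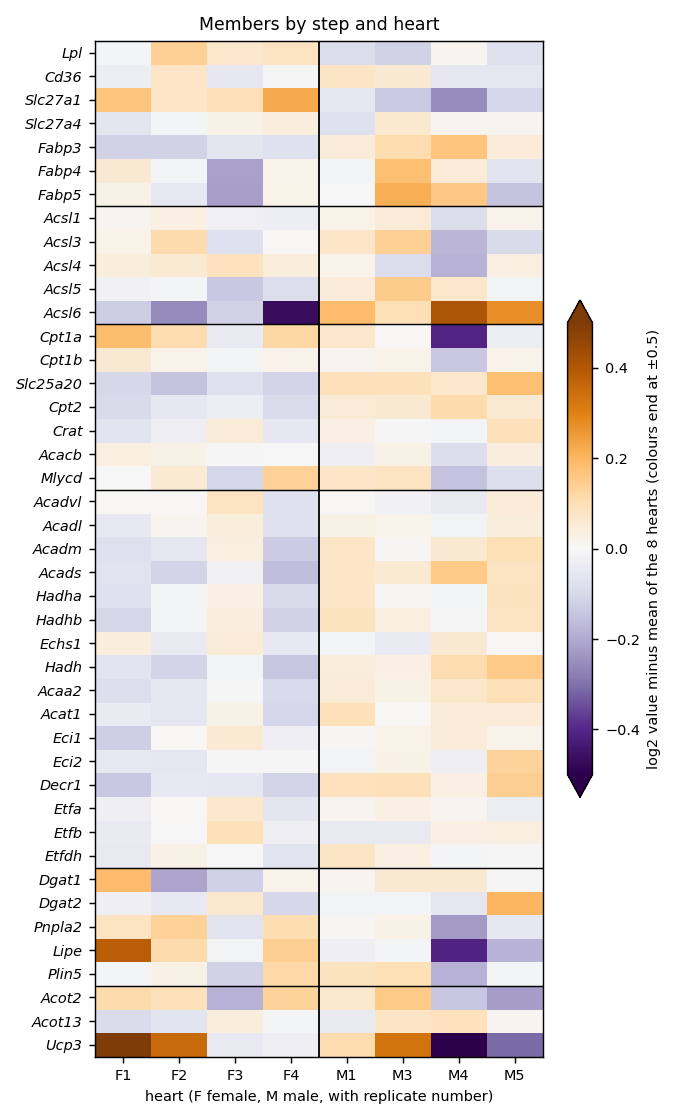
Log2 value of each gene in each heart minus the gene's mean over the 8 hearts, by step, with female hearts F1 to F4 left and male hearts M1, M3, M4 and M5 right; colours end at ± 0.5. In 9 of the 16 oxidation rows F1, F2 and F4 all lie below every male heart, and F3 lies within the male range in 8, below it in 4 and above it in 4. M4 is the lowest male heart in 6 of the 7 shuttle rows and 4 of the 5 storage rows, but the highest heart in Cpt2.

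Beyond the 43 genes, 105 further genes of the same pathways were measured out of 117 listed. None rose and 3 fell in females at a limma adjusted p under 0.05, beside 102 that did not pass. Of all genes 0.475% rose and 0.687% fell by that test. At an unadjusted p under 0.05 there were 8 higher and 22 lower, where 7.84% and 8.16% of all genes stood. DESeq2 called 2 higher and 7 lower, where it called 1.7% and 2.15% of all genes. Etfrf1, a regulator of the electron transfer flavoprotein, had 2577, 2561, 2582 and 2549 normalized reads in female hearts, against 3164, 2917, 3218 and 3130.2 in male hearts. The female hearts were nearly equal and all lay below the male hearts, and the fall of 0.27 on the log2 scale (SE 0.04, adjusted p = 0.00416 by limma) also passed without any 1 heart.

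The other 2 that fell are acyl-CoA synthetases. Acsm5, a medium-chain synthetase, had 252, 239.5, 218 and 220.5 normalized reads in female hearts, against 368, 286, 338 and 339 in male hearts (log2 fold change -0.51, limma adjusted p = 0.0248). Acsf2, another medium-chain synthetase, had 2255, 2379.6, 2194 and 2149.8 in female hearts, against 2549.6, 2720.1, 2480.3 and 2691 in male hearts (log2 fold change -0.22, adjusted p = 0.0337). Neither overlapped between the sexes. Each call ended without any 1 of 5 of the 8 hearts: for Acsm5 without female replicates 2, 3 or 4 or male replicates 1 or 4 (adjusted p up to 0.0764), and for Acsf2 without female replicates 1, 3 or 4 or male replicates 1 or 3 (up to 0.0964).

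For the counts that follow, 7.84% of all genes were higher and 8.16% lower at an unadjusted limma p under 0.05. DESeq2 called 1.7% of all genes higher and 2.15% lower. Of 21 other uptake and plasma lipid genes 0 passed by limma, 6 were higher and 4 lower at an unadjusted p under 0.05, and DESeq2 called Angptl2 higher and Meox2 lower. The smallest p belonged to Angptl2, an angiopoietin-like protein (log2 fold change 0.22, limma adjusted p = 0.081), which passed without male replicate 5 (0.00836). Of 21 peroxisomal oxidation genes 0 passed by limma and 5 were lower at an unadjusted p under 0.05. Scp2, a sterol carrier and thiolase, was lowest in p (log2 fold change -0.11, adjusted p = 0.0837) and the 1 that DESeq2 called. Of 27 further storage and lipolysis genes 0 passed by limma, with 1 higher and 5 lower at an unadjusted p under 0.05. Cidea, a lipid droplet protein, was lowest in p (log2 fold change -0.32, adjusted p = 0.0798, and 0.0306 without male replicate 4), and it was the 1 that DESeq2 called. Of 8 other thioesterase genes 0 passed by limma or DESeq2 and 1, Them4, was lower at an unadjusted p under 0.05 (log2 fold change -0.15, adjusted p = 0.185).

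The authors' deposited table and DESeq2 run on the recovered reads gave nearly the same adjusted p, such as 0.00101 for Cpt2 in both. They count as 1 further test of the same hearts and not as 2. At an adjusted p under 0.05 the authors' deposited table called 3 of the 43 genes higher in females, Slc27a1, Lpl and Lipe, and 8 lower, the 5 named above with Cpt2, Hadh and Acaa2. DESeq2 on the recovered reads called the same numbers, 3 higher and 8 lower, where it called 1.7% of all genes higher and 2.15% lower. The authors' deposited table called 690 of all genes, and 0 of the 43 passed the log2 fold change of 0.6 that the labels set. In the authors' deposited table the adjusted p was 0.0344 for Lpl, 0.0289 for Lipe, 0.00101 for Cpt2, 0.00633 for Hadh and 0.00896 for Acaa2.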

How the data were processed

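RNA from 4 female and 4 male hearts was sequenced, and 1 table of the whole series was analysed, with 1 column per heart. The deposited values are a normalized signal: whole read counts over a size factor for each heart set by the authors, as the values show, since 100% of them were whole multiples of the value of 1 read (tolerance 0.001). The table also holds the authors' log2 fold changes and the authors' p-values, which are NA after adjustment for 3823 genes and were never NA for the genes described. Per the submitters' processing notes the build was mm10. Not given in the sources used here are the aligner, counter, strand, filter and test. Per the labels' protocols, Trizol homogenates of the hearts were passed through a small RNA kit, although total RNA is named as the molecule. The table's lowest gene sums to 81 reads over 8 hearts.

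The design allowed for normalized values, so limma 3.58.1 (R 4.3.3, trend and robust options) was fitted to log2(value + 1), female minus male, over all 17911 genes, with no covariate. A gene needed a value of at least 1 in 4 hearts, which removed 0 genes and 0 of the 43. Calls used a Benjamini-Hochberg adjusted p under 0.05. On this scale fold changes of low genes are understated. Depth was 51.7 to 75.7 M (1e6) reads per heart. No heart appeared to be deposited more than once: chi-square per degree of freedom between hearts of 1 sex was 8.34 to 18.8. Transcript lengths are those of the principal transcript in GENCODE vM21, where 42 identifiers of the table had no match. Per-heart values are given for genes called and, in each step, for the gene highest per length and the gene most variable within a sex. Of the other pathway genes, those called and, in lists with none, the gene with the smallest p are named. Alternatives were edgeR 4.0.16 and DESeq2 1.42.0 on the recovered whole reads, where edgeR with TMM factors called 214 genes, limma-voom, other pseudocounts, filters and scalings, blocks, total reads as a covariate, the 5 deepest hearts, the thresholds stated in the labels and leaving out each heart. The fits were tested on simulated data. The members and lists were chosen with earlier results of these data known, and no result of them is independent support. Values of 1 pathway gene and 1 overlap between genes are not reported here.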

Additional observations from a re-analysis of the deposited data

Results flagged for a closer look

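In each sex every one of the 43 genes was checked for a heart far from the other 3, which gives 86 groups of 4 hearts. A heart was singled out where its gap to the nearest other heart, as a share of the group's range, exceeded Dixon's 95% critical value, which chance gives in about 1 group in 20, and 4 were. Male replicate 4 was low for Cpt1b, the muscle carnitine palmitoyltransferase, at 7089 normalized reads, where the other male hearts had 7866 to 7928. The same heart was high for Cpt2, at 15566, where the others had 14913 to 15008. Male replicate 5 was high for Dgat2, a triglyceride synthesis enzyme, at 28068, where the others had 23456 to 24185. Female replicate 3 was low for the thioesterase Acot2, at 5595, where the other female hearts had 6762.5 to 6942. None of these 4 genes passed the test between the sexes.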

How the results depend on the processing

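Of the 43 genes, 5 fell and 1 rose by limma, and all 208 genes called split into 85 higher and 123 lower (40.9% higher). Scaling by total reads gave 122 higher and 99 lower (55.2%) and moved the median of all genes from 0.00 to 0.02. DESeq2 called 690 genes, 8 members lower (2.15% of all genes were called lower) and 3 higher (1.7%), and 7 other pathway genes lower and 2 higher. A block by the second number of the library code, whose meaning is not stated, gave 376 genes, with 8 members lower and 1 higher. Total reads as a covariate gave 153 genes. There 2 members fell and 1, Slc27a1, rose, and 2 other pathway genes fell and 1 rose. In the 5 hearts with the most reads 2 members fell and 0 rose. The thresholds stated in the labels left 0 members lower and 0 higher, and 0 other pathway genes lower and 1 higher. Leaving out 1 heart gave 77 (without female replicate 2) to 516 (without male replicate 5) genes, 1 to 6 members lower, 1 member higher throughout, 1 to 5 other pathway genes lower and 0 to 1 higher. Causes of these moves were not tested. Slc27a1 and Slc25a20 passed without any 1 heart, and the other 4 did not.

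With the replicate number as a block (replicate block), 0 members fell and 0 rose, and 2 other pathway genes fell and 1 rose. Of all genes that block called 145, with 57 higher and 88 lower. Replicate numbers are shared by 3 pairs only, and the deviations of same-numbered hearts correlated at 0.193, -0.0738 and -0.0944 over 12777 genes. Pairs of unlike number ran from -0.247 (female replicate 2 with male replicate 5) to 0.276 (female replicate 3 with male replicate 5). These correlations cannot decide whether the numbers pair the hearts, since a shared litter or handling need not show in them. The title of female replicate 4 goes with a library code that begins with 5, and its deviations correlated at 0.193 with those of male replicate 5. With that pair in place of the same-numbered one, 1 of the 3 correlations is still below 0.1, and the block was not refitted with that pair.

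Small log2 fold changes turned sign, none of them of a gene called. Under total-read scaling they were Cd36 0.00503, Slc27a4 0.01096, Acsl1 0.01257, Echs1 0.01237 and Etfa 0.006996. Under the replicate block they were Slc27a4 0.001661, Acsl3 -0.02963, Echs1 0.0121, Dgat2 0.007079, Plin5 -0.002337 and Acot2 -0.005077. With total reads as a covariate they were Cd36 0.009994, Echs1 0.00725, Etfa 0.01446 and Plin5 -0.02024, and in the 5 deepest hearts Acsl1 0.0264 and Etfb -0.0003631. Leaving out 1 heart gave Cd36 -0.0355 to 0.01373, Slc27a4 -0.02932 to 0.01594, Acsl1 -0.03097 to 0.01346, Acsl3 -0.02424 to 0.08075, Mlycd -0.006442 to 0.07965, Acadvl -0.01864 to 0.032, Echs1 -0.01986 to 0.01567, Etfa -0.03235 to 0.01078, Etfb -0.01509 to 0.02937, Dgat1 -0.1323 to 0.0001803, Dgat2 -0.08654 to 0.0007831 and Plin5 -0.05381 to 0.04657.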

Other observations

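Some further fatty acid genes also varied widely from heart to heart, and 3 of them, chosen after their values were seen, are given here. Angptl4, a secreted inhibitor of lipoprotein lipase, had 1381, 1462, 579 and 905 normalized reads in female replicates 1 to 4, against 1989.5, 1168, 522 and 932 in male replicates 1, 3, 4 and 5. Female replicate 3 and male replicate 4 were the lowest of their sex, and the sexes overlapped almost fully. Acot1, a cytosolic thioesterase next to Acot2, had 1855, 1816, 1432 and 2452 in female hearts, against 1964, 2068, 1429 and 1306 in male hearts. There female replicate 3 was lowest among females and male replicate 5 among males. Bdh1, a ketone body dehydrogenase, had 3510.2, 4256, 3251 and 2404 in female hearts, against 2976, 3568, 4081 and 1685 in male hearts, with female replicate 4 and male replicate 5 lowest. None of these 3 genes passed the test between the sexes by limma, with adjusted p between 0.788 and 0.989. Bdh1 passed with total reads as a covariate (adjusted p = 0.00356) and in none of the other 19 alternatives, and Angptl4 and Acot1 passed in none of the 20.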
